A study of Mus musculus with 10 samples.

Results

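Heme is built in the liver by a chain of enzymes and taken apart by another, and the transcripts of 9 of these enzymes were followed in mouse livers with 2 forms of experimental cholangitis. The 9 genes were Alas1, Alad, Uros, Urod, Cpox, Ppox and Fech for synthesis, and Hmox1 and Blvrb for degradation. They were chosen by symbol from 59408 gene models, and each symbol matched 1 model. All 9 passed the filter on low values (at least 10 normalised reads in at least 3 libraries), as did 18390 models in all.

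Whole livers of 10 wild-type C57Bl/6 mice were collected at day 35 and profiled by poly(A) RNA sequencing. The PSC group (3 mice, numbered 11, 13 and 14) is a non-autoimmune model of primary sclerosing cholangitis: 0.089% DDC (diethoxycarbonyl-dihydrocollidine, a porphyrinogenic compound that injures bile ducts) was mixed into the food for 2 weeks and, after 1 week of plain food, for 1 further week. By that schedule DDC feeding was over before collection. The PBC group (3 mice, numbered 7, 8 and 9) is an autoimmune model of primary biliary cholangitis: 100 µg of 2OA-BSA, 2-octynoic acid coupled to albumin, was injected with complete Freund's adjuvant on day 0 and with incomplete adjuvant on days 14 and 28, and 2 µg of α-galactosylceramide (α-GalCer), a glycolipid that activates NKT cells, accompanied the first pair of injections. The control group (4 mice, numbered 1 to 4) was untreated and received neither adjuvant nor glycolipid. Sex, age and the hour of killing were not given in the sources used here.

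Synthesis begins in the mitochondrion, where ALAS1 joins glycine and succinyl-CoA in the step that limits the rate in liver. It moves to the cytosol for the steps from ALAD to UROD, and returns to the mitochondrion for CPOX, PPOX and ferrochelatase (FECH), which places iron in protoporphyrin. Heme itself represses Alas1 in hepatocytes, so that synthesis follows the need of cytochromes P450 and other hemoproteins. Heme oxygenase 1 (HMOX1) opens the ring to biliverdin, iron and carbon monoxide, and is abundant in macrophages that clear red cells. Biliverdin reductases turn biliverdin into bilirubin. DDC is known for giving rise, in mouse liver, to an alkylated porphyrin that inhibits FECH, with build-up of protoporphyrin.

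Recovered sequencing depth lay between 38.3 M and 95.4 M reads per library (M, mega). The mitochondrial share of reads was highest in control 2, at 13.7%, and at most 8.67% in the others. Levels below are normalised reads per gene, given by liver and as mean ± SD (n = 3 PSC, 3 PBC and 4 control livers). Changes are differences on the log2(value + 1) scale with their standard error (SE), from limma fitted to all 10 livers, with p adjusted over all tested models by the method of Benjamini and Hochberg and a threshold of 0.05. PSC and PBC were both set against the same 4 control mice, so these comparisons are not independent of each other.

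In PSC livers, Hmox1 rose and Cpox and Fech fell against control, while the other 6 enzymes did not pass the test. That was 1 of 9 called higher, against 8.25% of all tested models, and 2 of 9 called lower, against 6.48%. In PBC livers, Hmox1 rose and no synthesis enzyme passed the test. That was 1 of 9 called higher, against 7.6% of all tested models, and 0 of 9 called lower, against 2.34%, although 4 of the 9 had an unadjusted p under 0.05. Between PSC and PBC livers, 0 of the 9 were called higher, against 1.13% of all tested models, and 0 lower, against 1.11%, with 1 unadjusted p under 0.05. DESeq2 called 1 gene in PBC against control lower (Fech) and 1 in PSC against PBC higher (Uros). The median change of the 9 genes was 0.09 in PSC against control, where that of all tested models was 0.06. In PBC against control it was -0.17 beside 0.01, and in PSC against PBC it was -0.12 beside -0.02. In whole tissue, fewer cells of a type and less RNA per cell cannot be told apart.

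The groups were also compared for overlap between livers. PSC livers lay wholly above control livers for 1 of the 9 genes, as for 15.9% of all tested models, and wholly below for 2, as for 15.6%. PBC livers lay wholly above control livers for 1, as for 12.7% of all tested models, and wholly below for 0, as for 6.89%. PSC livers lay wholly above PBC livers for 1, as for 12.6%, and wholly below for 0, as for 14.6%.

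**Figure D1:**
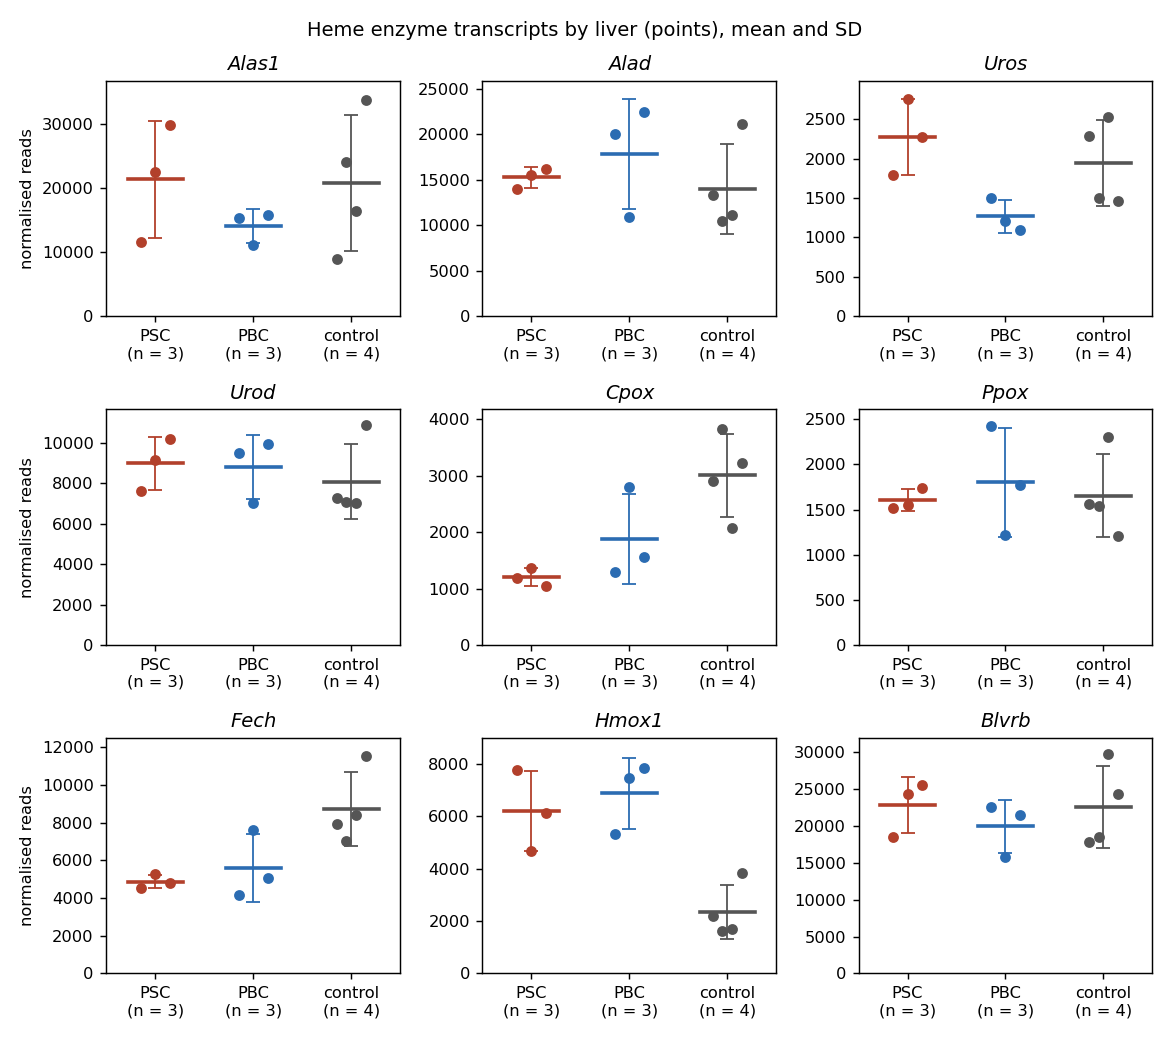
Normalised reads (vertical axis) of the 9 heme enzyme transcripts in PSC (n = 3), PBC (n = 3) and control (n = 4) livers. Points are livers, horizontal lines means and bars SD. All PSC livers lay below all control livers for Cpox and Fech, and all PSC and PBC livers lay above all control livers for Hmox1.

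Counted per kilobase of exon, the transcripts differed widely in abundance. The length was that of all annotated exons of a gene merged (GENCODE basic), not that of the transcript present in liver. It was 7198 bases for Fech and 1821 for Ppox, so the order depends on this choice. In PSC livers the order was Blvrb, Alad, Urod, Alas1, Hmox1, Uros, Ppox, Fech and Cpox, with Blvrb at 16100 ± 2686 and Cpox at 388 ± 51 normalised reads per kilobase. In PBC livers the order was Blvrb, Alad, Urod, Hmox1, Alas1, Ppox, Fech, Cpox and Uros, but the ranges of neighbours overlapped except between Alad and Urod and between Alas1 and Ppox. In control livers the order was Blvrb, Alad, Urod, Alas1, Hmox1, Fech, Cpox, Ppox and Uros, with Blvrb at 15973 ± 3935 and Cpox at 972 ± 237. In PSC livers Cpox was last and did not overlap Fech, its neighbour above, nor did Fech overlap Ppox; the neighbours Urod and Alas1, Alas1 and Hmox1, and Uros and Ppox overlapped. In control livers Alad and Urod alone among neighbours in the order were apart.

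Alas1 (chr9:106233455-106247954, minus strand, mm10) is the gene through which the liver sets its rate of heme synthesis. Its level was 11673, 22506 and 29860.3 in PSC livers, 15398, 11078 and 15804 in PBC livers, and 9027, 24092, 16423 and 33709 in control livers. The control mice alone covered a 3.73-fold range, which contained every PSC and PBC liver. The difference was 0.09 in PSC against control (SE 0.40, 95% confidence interval -0.77 to 0.95, adjusted p = 0.898) and -0.42 in PBC against control (SE 0.40, interval -1.28 to 0.44, adjusted p = 0.54). PSC against PBC gave 0.51 (SE 0.43, interval -0.41 to 1.43, adjusted p = 0.53). These are the widest intervals of the 9 genes. With quality weights the PSC difference was 0.82 (adjusted p = 0.0701) and the PBC difference 0.28 (adjusted p = 0.681), and neither was called.

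Near the start of Alas1 the genome holds the core of the motif of nuclear respiratory factor 1, a regulator of genes for mitochondrial proteins. The stretch is shown because ALAS1 is the entry to the pathway; it runs from 250 bases before to 50 bases after the RefSeq start site (GRCm38.p6, chr9:106247905-106248204, minus strand, RefSeq), and capitals mark where GCATGCG lies on both strands, the matches overlapping.
Alas1 promoter: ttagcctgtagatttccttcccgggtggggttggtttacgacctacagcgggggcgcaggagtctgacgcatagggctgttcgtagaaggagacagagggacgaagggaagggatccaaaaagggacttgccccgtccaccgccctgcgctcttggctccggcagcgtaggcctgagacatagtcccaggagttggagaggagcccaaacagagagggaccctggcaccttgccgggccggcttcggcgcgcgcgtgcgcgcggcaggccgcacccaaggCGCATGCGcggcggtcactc
The first match begins 30 bases after the start site. Of 32851 such RefSeq windows, 3.58% hold it on either strand. Of the 9 enzymes, 7 matched this table, and Alas1 was the only one of those 7 whose windows held it.

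Among the 4 genes nearest to Alas1 in profile over the 10 livers (least root mean square difference of log2 values taken relative to the control mean, among genes with a symbol) were B330016D10Rik and Gde1, at 0.356 and 0.358, where the median over 14701 genes was 0.833. Gde1 encodes a glycerophosphodiester phosphodiesterase. It averaged 2379 ± 415 in PSC, 2125 ± 619 in PBC and 2708 ± 803 in control livers, and its differences were not called.

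The cytosolic steps that follow gave no call against control. Alad (chr4:62505984-62520063, minus strand), which joins 5-aminolevulinate into porphobilinogen, stood at 14050.4, 15509 and 16246 in PSC livers, 20023, 10958 and 22476 in PBC livers, and 13290.3, 10483, 11107 and 21135 in control livers. The groups overlapped, with a difference of 0.18 in PSC (interval -0.42 to 0.78, adjusted p = 0.707) and 0.34 in PBC (interval -0.26 to 0.94, adjusted p = 0.472).

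Urod (chr4:116989965-116994413, minus strand) removes carboxyl groups from uroporphyrinogen. It stood at 7607, 9137 and 10207 in PSC livers, 9512, 7019.9 and 9932 in PBC livers, and 7297, 7096, 7045 and 10868 in control livers. The groups overlapped, and control 4 stood above the other 3 controls. Its difference was 0.17 in PSC (interval -0.28 to 0.62, adjusted p = 0.634) and 0.14 in PBC (interval -0.32 to 0.59, adjusted p = 0.723).

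Uros (chr7:133686243-133710447, minus strand) closes the porphyrin ring and is the enzyme deficient in congenital erythropoietic porphyria in people. Its level was 1791, 2754 and 2273 in PSC livers, 1495, 1211 and 1094 in PBC livers, and 2284, 1504, 2529 and 1463 in control livers. Every PSC liver lay above every PBC liver, while the controls fell on both sides. The difference was 0.83 in PSC against PBC (SE 0.26, interval 0.28 to 1.39, adjusted p = 0.117), 0.25 in PSC against control (adjusted p = 0.531) and -0.59 in PBC against control (SE 0.24, interval -1.11 to -0.07, adjusted p = 0.136). None of these was called by limma, and the first of them was called by DESeq2 (0.88, adjusted p = 0.0317) and with quality weights (0.88, adjusted p = 0.0385). Quality weights also gave a call in PBC against control (-0.68, adjusted p = 0.0471). The gene overlaps Bccip on the other strand, and whether reads were counted by strand was not given in the sources used here. Its level is uncertain to that extent.

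Cpox (chr16:58670208-58680391, plus strand), which converts coproporphyrinogen III in the mitochondrial intermembrane space, had the largest fall among the 9. Its level was 1190.2, 1365 and 1050.1 in PSC livers, 1291, 2791 and 1566 in PBC livers, and 2908, 3835, 2074 and 3218 in control livers. All PSC livers lay below all control livers. PBC 8 lay among the controls, PBC 9 below them and PBC 7 within the PSC range. Cpox fell by 1.30 on the log2 scale in PSC against control (SE 0.27, interval -1.88 to -0.71, adjusted p = 0.00776), to 1202 ± 158 in PSC livers against 3009 ± 733 in control livers, 0.399 times the control mean. It kept its call in each of the 20 alternative analyses, between -1.46 and -1.17, with an adjusted p of at most 0.0496 (without PSC 14). In PBC the difference was -0.72 (SE 0.27, interval -1.31 to -0.14, adjusted p = 0.106), and without PBC 8 it was -1.05 (adjusted p = 0.0122) and with quality weights -0.96 (adjusted p = 0.00669). PSC against PBC gave -0.57 (SE 0.29, interval -1.20 to 0.05, adjusted p = 0.306), so the models were not shown to differ.

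The promoter window of Cpox is shown because no other of the 9 fell as far (RefSeq, GRCm38.p6, chr16:58669958-58670257, plus strand, 250 bases before to 50 after the start site). Capitals mark CTTATC, which reads GATAAG, a motif of GATA factors, on the other strand.
Cpox promoter: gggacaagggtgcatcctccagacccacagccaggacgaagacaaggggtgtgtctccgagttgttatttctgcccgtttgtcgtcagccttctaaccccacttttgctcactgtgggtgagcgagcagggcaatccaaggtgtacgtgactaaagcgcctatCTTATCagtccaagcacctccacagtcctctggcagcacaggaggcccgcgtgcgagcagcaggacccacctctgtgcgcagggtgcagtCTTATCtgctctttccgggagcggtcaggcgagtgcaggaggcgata
The motif occurs in this window 2 times, beginning 87 bases before and 3 bases after the start site, and 7.44% of the 32851 windows hold it at least once. Among the 7 matched enzymes only Cpox and Uros held it. Matches of a gene were pooled over all its windows, and Alas1, Alad, Uros and Blvrb had 2 each, while the shares are of single windows. CACGTG, an E-box, was found for Alad, Uros and Urod (7.15% of all windows), and GGGCGG, a GC box, for Alas1, Alad, Uros, Urod, Ppox and Blvrb (35.7%). TGACNNNGC, the core of the antioxidant response element, was found for none of the 7 (12.4%). Fech and Hmox1 were not matched. These are matches of letters on both strands and not shown binding.

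Ppox (chr1:171275990-171281186, minus strand), which oxidises protoporphyrinogen, was not called in any comparison. It stood at 1514, 1549 and 1742 in PSC livers, 2422, 1212 and 1769 in PBC livers, and 1561, 1544, 2307 and 1208 in control livers. The groups overlapped, with differences of -0.01 in PSC (interval -0.56 to 0.54, adjusted p = 0.984) and 0.11 in PBC (interval -0.45 to 0.66, adjusted p = 0.832). The gene overlaps B4galt3 on the other strand, with the same doubt about its reads.

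Fech (chr18:64456542-64489099, minus strand) encodes the enzyme that DDC is known to inhibit. Its level was 4541, 5252 and 4818 in PSC livers, 4133, 7619 and 5087 in PBC livers, and 7948, 6998, 8399 and 11508 in control livers. All PSC livers lay below all control livers, and PBC 8 lay among the controls while PBC 7 and PBC 9 lay below them. Fech fell by 0.82 on the log2 scale in PSC against control (SE 0.23, interval -1.31 to -0.32, adjusted p = 0.0309), with 4870.2 ± 358 in PSC livers against 8713 ± 1952 in control livers, 0.559 times the control mean. The call was lost without control 1 (adjusted p = 0.0589), control 4 (0.0694), PSC 11 (0.106), PSC 13 (0.0713) or PSC 14 (0.112), and with equal totals (0.0716), while the difference stayed between -0.91 and -0.67. In PBC the difference was -0.66 (SE 0.23, interval -1.15 to -0.16, adjusted p = 0.0849). Without PBC 8 it was -0.90 (adjusted p = 0.0135), DESeq2 gave -0.69 (adjusted p = 0.0451) and quality weights gave -0.76 (adjusted p = 0.0105). PSC against PBC gave -0.16 (interval -0.69 to 0.37, adjusted p = 0.749).

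**Figure D2:**
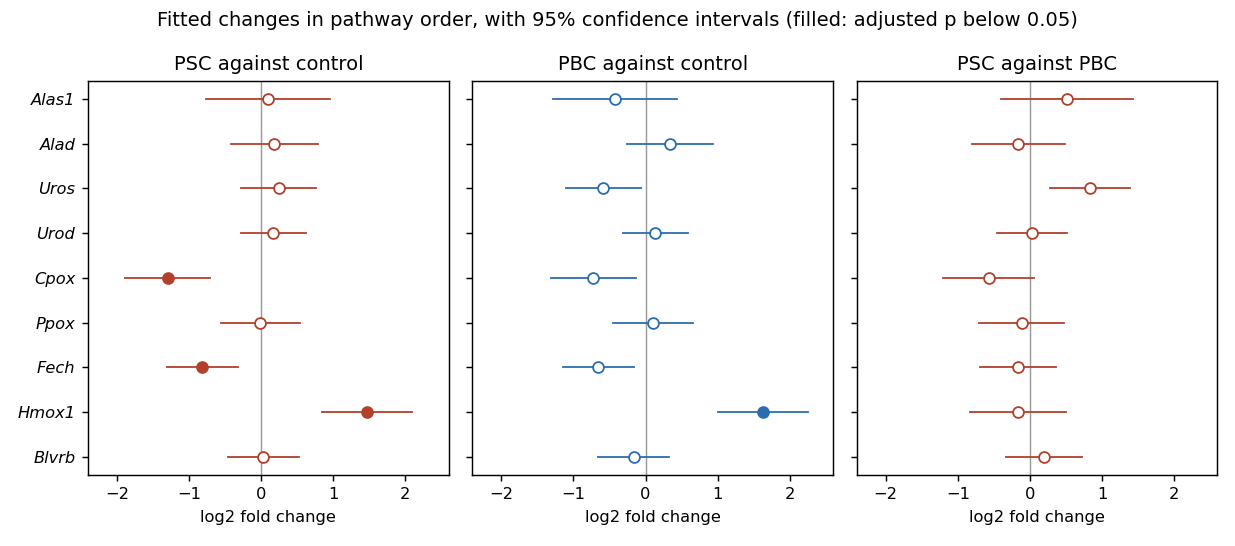
Log2 difference (horizontal axis) of the 9 enzymes, from Alas1 at the top to Blvrb at the bottom, in PSC against control, PBC against control and PSC against PBC. Points are limma estimates with 95% confidence intervals, and filled points are called at an adjusted p below 0.05. Filled points are Cpox, Fech and Hmox1 in PSC against control, and Hmox1 in PBC against control.

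Hmox1 (chr8:75093617-75100592, plus strand), which opens the heme ring, rose in both models. Its level was 7739.9, 4686 and 6108 in PSC livers, 5334, 7439 and 7825 in PBC livers, and 2198, 1608, 1709 and 3826 in control livers. Every cholangitis liver lay above every control liver. It rose by 1.46 in PSC against control (SE 0.29, interval 0.84 to 2.09, adjusted p = 0.00559), 2.65 times the control mean, and by 1.63 in PBC against control (SE 0.29, interval 1.00 to 2.25, adjusted p = 0.00362), 2.94 times. Both calls were kept in all 20 alternatives, between 1.29 and 1.73 in PSC and between 1.48 and 1.89 in PBC. PSC against PBC gave -0.16 (SE 0.31, interval -0.83 to 0.50, adjusted p = 0.802), so the models were not shown to differ.

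Blvrb (chr7:27447978-27465986, plus strand), a biliverdin and flavin reductase, was the most abundant per kilobase. It stood at 18450.3, 24252 and 25596 in PSC livers, 22550.0, 15823 and 21420.2 in PBC livers, and 17837, 18489, 29694 and 24325 in control livers. The groups overlapped, and the difference was 0.03 in PSC (interval -0.46 to 0.52, adjusted p = 0.948) and -0.17 in PBC (interval -0.66 to 0.32, adjusted p = 0.687).

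**Figure D3:**
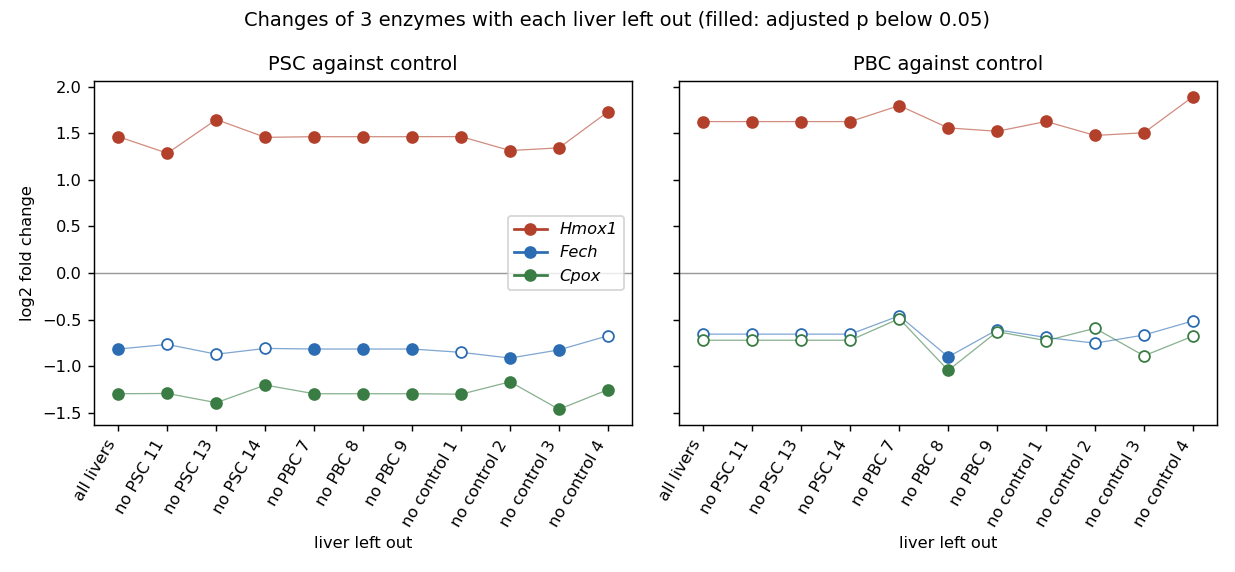
Log2 difference (vertical axis) of Hmox1, Fech and Cpox in PSC and PBC against control, with all livers and with each liver left out in turn (horizontal axis). Filled points are called at an adjusted p below 0.05, and lines only join points of a gene. In PSC, Hmox1 and Cpox are filled throughout and Fech is open where PSC 11, PSC 13, PSC 14, control 1 or control 4 is left out; in PBC, Fech and Cpox are filled without PBC 8 alone.

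Part of the Kupffer cell and macrophage markers moved with Hmox1. Against control, 6 of 12 rose in PSC livers (8.25% of all tested models) and 11 of 12 in PBC livers (7.6%). Their summed level was 123024 to 159505 in PSC, 175370 to 242958 in PBC and 51061 to 81622 in control livers. The complement genes C1qa, C1qb and C1qc made up much of this sum. C1qb averaged 31796 in PSC and 11744 in control livers, and C1qc 18296 and 8489. Clec4f, a receptor of Kupffer cells, averaged 23024 ± 2738 in PSC, 30228 ± 3363 in PBC and 16464 ± 3779 in control livers, and C1qa, a complement subunit made by macrophages, 27092 ± 1468, 35454 ± 3926 and 11682 ± 2719 in the same groups. In PSC against control C1qa rose (1.25, adjusted p = 0.00217), and Clec4f was not called (0.51, adjusted p = 0.124). Other markers of the list did not follow Hmox1 in PSC livers. Timd4, a receptor of resident Kupffer cells, averaged 366 ± 50 in PSC, 1545 ± 902 in PBC and 594 ± 198 in control livers and was -0.65 in PSC against control (adjusted p = 0.215). Adgre1, which encodes the F4/80 antigen, averaged 802 ± 212 in PSC, 1552 ± 1238 in PBC and 771 ± 317 in control livers (adjusted p = 0.877 in PSC). Relative to the control mean, Hmox1 was 3.31, 2.01 and 2.62 in PSC livers and 2.28, 3.19 and 3.35 in PBC livers. The marker sum was 2.23, 1.72 and 1.76 in PSC livers and 2.45, 3.40 and 3.03 in PBC livers. The part of these cells in the rise of Hmox1 was not tested.

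Among the 4 genes nearest to Hmox1 in profile were Clec4a1, Arhgap25 and Lrrc25, at root mean square differences of 0.214, 0.217 and 0.226, where the median over 14701 genes was 1.32. Clec4a1, a C-type lectin of myeloid cells, averaged 810.1 ± 261 in PSC, 1149.7 ± 86.6 in PBC and 325 ± 125 in control livers. Of all tested models, 8.25% were called higher in PSC and 7.6% in PBC livers. Markers of recruited macrophages rose in 7 of 7 genes in PSC and 5 of 7 in PBC livers, with sums of 5595 to 8070.1 in PSC, 2127 to 2610 in PBC and 377 to 697 in control livers. Neutrophil markers rose in 5 of 7 genes in PSC and 7 of 7 in PBC livers, with sums of 8791 to 15827 in PSC, 36251 to 106724 in PBC and 357 to 6432 in control livers. No marker of these 3 lists was at 0 in all livers.

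**Figure D4:**
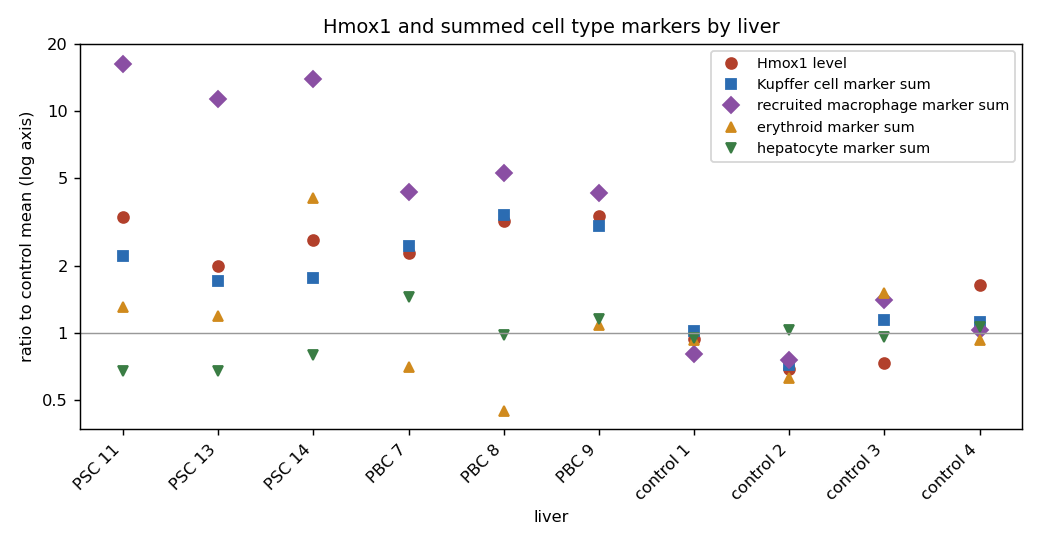
Level relative to the control mean (vertical, log axis) of Hmox1 and of the summed Kupffer cell, recruited macrophage, erythroid and hepatocyte markers in each liver (horizontal axis). Hmox1 lay between 2.01 and 3.31 in PSC livers, and the Kupffer cell sum between 1.72 and 2.23; in PBC livers they lay between 2.28 and 3.35 and between 2.45 and 3.40.

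Of 8 markers of hepatocytes, in which most liver heme is made, 0 were called in PSC livers and 1, higher, in PBC livers. Among all tested models 8.25% were called higher and 6.48% lower in PSC, and 7.6% and 2.34% in PBC. Their sum was 6457169 to 7670521 in PSC, 9421768 to 13929530 in PBC and 9132781 to 10177670 in control livers, so all 3 PSC livers were below the controls. Alb, the most abundant of the 8, carried most of that gap, with 3397602 ± 255677 in PSC and 5602143 ± 1075814 in control livers (adjusted p = 0.222). Ttr was 749978 ± 59054 in PSC and 1231368 ± 145664 in control livers, and Serpina1c 290713 ± 16295 and 403253 ± 33379. For Alb, Ttr and Serpina1c all PSC livers lay below all control livers, as for 15.6% of all tested models. Ahsg went the other way, with 379436 ± 24974 in PSC and 338744 ± 52415 in control livers (adjusted p = 0.688). Fgb and Asgr1 also averaged higher in PSC than in control livers. The median change of the 8 markers in PSC was -0.09. Cholangiocyte markers were called higher in 5 of 7 genes in PSC livers and in 2 of 7 in PBC livers, with sums of 54397 to 95289 in PSC, 10631 to 14253 in PBC and 8202 to 13497 in control livers. Spp1 made up most of these sums, at 75427 ± 21572 in PSC, 11209 ± 2000 in PBC and 9081 ± 2337 in control livers. Krt19 averaged 808 ± 226, 406 ± 99.6 and 191 ± 61.9 in the same groups. The part of either cell type in the falls of Cpox and Fech was not tested.

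Call counts of the lists that follow stand beside these shares of all tested models. Against control, 8.25% were called higher and 6.48% lower in PSC, and 7.6% and 2.34% in PBC. In PSC against PBC, 1.13% were higher and 1.11% lower. No list was tested as a whole. Among the other enzymes of the pathway, Alas2, the erythroid form of the entry enzyme, rose in PSC livers, and the other 3 tested, Hmox2 and Blvra among them, were not called. Alas2 was 2306, 2321 and 3522 in PSC livers, 1447, 1381 and 2277 in PBC livers, and 931, 646, 1344 and 2267 in control livers. All 3 PSC livers were above the controls, control 4 by little. The difference was 1.19 in PSC (SE 0.36, adjusted p = 0.0395), and it was lost without control 1, control 2 or any 1 PSC liver (adjusted p 0.0773 to 0.178), with equal totals (0.0527) and with edgeR (0.0552). Of 12 erythroid markers 7 were tested and 0 were called, with sums of 122416 to 416769 in PSC, 45468 to 111619 in PBC and 64207 to 154716 in control livers. PSC 14 stood apart, with Hbb-bs, a beta globin whose reads may be shared with its near-identical copy, at 275129 against 83149 and 78804 in PSC 11 and PSC 13. Alas2 was highest in that liver. Control 4 had Alas2 at 2267 with an erythroid sum of 95749, and control 3 had 1344 with the highest control sum, 154716. The part of blood in the level of Alas2 was not tested. Hmox2, the constitutive heme oxygenase, averaged 995 ± 121 in PSC, 1012 ± 310 in PBC and 663 ± 77.1 in control livers (adjusted p = 0.109 in PSC and 0.14 in PBC).

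Among 15 genes of mitochondrial transport and assembly, 2 fell in PSC livers and 0 were called in PBC livers. Slc25a37, an importer of iron into mitochondria, was 2046, 1498 and 1566 in PSC livers, 2218, 2664 and 2645 in PBC livers, and 2136, 2999, 2309 and 3609.7 in control livers. All PSC livers lay below all control livers. It fell by 0.68 (SE 0.21, adjusted p = 0.0483), with 1703 ± 299 in PSC and 2763 ± 676 in control livers. Leaving out control 2, control 4, PBC 7, PBC 9 or any 1 PSC liver ended the call (0.0572 to 0.178), as did 3 other settings. Slc25a28, also an importer of iron into mitochondria, went the other way and was not called. Its difference was 0.32 in PSC (adjusted p = 0.298) and 0.52 in PBC (adjusted p = 0.108). Its PSC livers, at 1567 or more, all lay above its control livers, at 1511 or less.

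Among 11 carriers of heme and porphyrins, 3 rose in PSC livers and 0 were called in PBC livers. Slc48a1, which moves heme out of lysosomes, rose by 0.58 (SE 0.18, adjusted p = 0.0458), Hebp2, a heme-binding protein, by 1.42 (SE 0.38, adjusted p = 0.0255), and Tspo, a protein of the outer mitochondrial membrane that binds porphyrins, by 0.85 (SE 0.23, adjusted p = 0.0299). Tspo stood at 19762 ± 4092 in PSC, 13196 ± 3133 in PBC and 11007 ± 2374 in control livers. For Hebp2 the PSC and control livers overlapped, with control 3 at 393.4 and PSC 13 at 389.8. Each of the 3 calls was lost when single libraries were left out: Slc48a1 without control 1, 2 or 4, PBC 7 or any 1 PSC liver (0.0558 to 0.174), Hebp2 without control 1, 2 or 4 or any 1 PSC liver (0.0505 to 0.12), and Tspo without control 1, control 2, PSC 13 or PSC 14 (0.0712 to 0.15).

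The plasma scavengers of heme had the highest median change of the 8 lists in both models. Of 5, 3 rose in PSC livers and the same number in PBC livers. Hp, haptoglobin, which binds free hemoglobin, was 1302122, 984110.0 and 1418944 in PSC livers, 1045335, 890460.3 and 1082392 in PBC livers, and 253148, 219071, 243493 and 231174 in control livers. It rose by 2.37 in PSC (SE 0.25, adjusted p = 7.92e-05) and by 2.08 in PBC (SE 0.25, adjusted p = 0.000308). Hpx, hemopexin, which binds free heme, rose by 1.74 in PSC (SE 0.29, adjusted p = 0.00215) and by 1.77 in PBC (SE 0.29, adjusted p = 0.00228), with 1760177 ± 320064 in PSC, 1782170.0 ± 209202 in PBC and 526769 ± 103179.6 in control livers. Its PBC call was lost with no filter on low values (0.0537). Lrp1, the receptor for the hemopexin complex, rose by 1.43 in PSC (SE 0.36, adjusted p = 0.0195) and by 1.68 in PBC (SE 0.36, adjusted p = 0.0111). The PSC call was lost without any 1 PSC liver (0.0561 to 0.0722) and the PBC call without PBC 7 or PBC 9 (0.0583 to 0.0623). Cd163, the macrophage receptor for haptoglobin-hemoglobin, was 239 ± 93 in PSC, 682 ± 307 in PBC and 434 ± 142 in control livers and was not called (adjusted p = 0.131 in PSC and 0.309 in PBC).

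**Figure D5:**
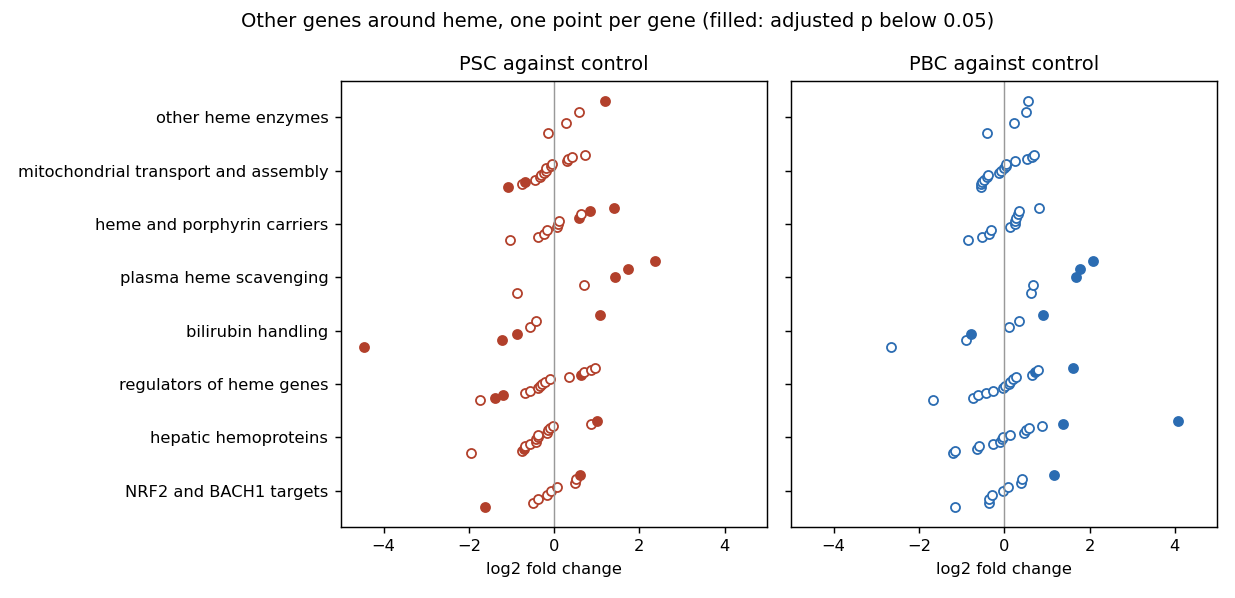
Log2 difference (horizontal axis) of genes of the lists around the heme enzymes in PSC and PBC livers against control, grouped by list. Each point is a gene, filled where called. Hp and Hpx lay farthest to the right among the plasma scavengers, and Slco1a1 farthest to the left among the bilirubin genes.

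Of 6 genes that handle bilirubin, 3 fell and 1 rose in PSC livers, and 1 fell and 1 rose in PBC livers. Abcc3, an exporter on the sinusoidal side, rose by 1.08 in PSC (SE 0.17, adjusted p = 0.00118) and by 0.91 in PBC (SE 0.17, adjusted p = 0.0042), with 13329 ± 798 in PSC, 11788 ± 683 in PBC and 6312 ± 767 in control livers. Slco1b2, an importer of organic anions, fell by 0.87 in PSC (SE 0.22, adjusted p = 0.0192) and by 0.78 in PBC (SE 0.22, adjusted p = 0.0381). The first was lost without control 1, PSC 11 or PSC 14 (0.0531 to 0.0866) and the second without control 1, control 4, PBC 7, PBC 9 or any 1 PSC liver (0.0506 to 0.16) and in 4 other settings. Slco1a1 was 125, 80.9 and 87.1 in PSC livers, 1296, 68.5 and 417 in PBC livers, and 6374, 4304, 4562 and 159.7 in control livers, so that control 4 stood near the PSC livers. It fell by 4.45 (SE 1.12, adjusted p = 0.0193). The difference was -5.69 without control 4, -5.32 with edgeR or DESeq2 and -5.45 with quality weights. The call was lost without control 1, control 2 or any 1 PSC liver (0.0508 to 0.0769). Slco1a4 fell by 1.21 in PSC (SE 0.34, adjusted p = 0.0333), lost without control 1, control 4 or any 1 PSC liver (0.0642 to 0.134) and with equal totals (0.0616).

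Of 15 regulators, 1 rose and 2 fell in PSC livers (8.25% and 6.48% of all tested models), and 2 rose in PBC livers (7.6%). Hif1a, the hypoxia factor, fell by 1.19 in PSC (SE 0.26, adjusted p = 0.0087), lost without PSC 14 (0.0519). Ppargc1a, a coactivator that induces Alas1 in fasted mouse liver, fell by 1.38 in PSC (SE 0.41, adjusted p = 0.0413), lost without control 1, 3 or 4 or any 1 PSC liver (0.0525 to 0.156), with no filter (0.0572) and with equal totals (0.0793). Nfe2l2, which encodes the NRF2 activator of Hmox1, rose by 0.64 in PSC (SE 0.19, adjusted p = 0.041), lost when any 1 of 8 libraries was left out (0.0503 to 0.182) and in 3 other settings; it was 12554, 8436 and 8307 in PSC livers, 6898, 7681 and 6839 in PBC livers, and 5769.5, 5757, 5735 and 7501 in control livers, and its difference was 0.45 without PSC 11. Bach1, the heme-sensing repressor of Hmox1, was 1587 ± 403 in PSC, 2395 ± 1050.5 in PBC and 2376 ± 689 in control livers and was not called. In PBC, Nr1d1, a heme-binding clock repressor, rose by 1.60 (SE 0.41, adjusted p = 0.0264), lost without control 1, PBC 7 or PBC 9 (0.0683 to 0.0957) and in 2 other settings. Nr1d2, of the same list, went the other way, with 868 ± 888 in PBC and 2437 ± 1678 in control livers, and was not called. Foxo1, a factor of the fasted liver, rose by 0.72 in PBC (SE 0.21, adjusted p = 0.0441), lost when any 1 of 8 libraries was left out (0.063 to 0.195) and in 5 other settings.

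Of 15 hemoproteins of hepatocytes, 1 rose and 1 fell in PSC livers (8.25% and 6.48% of all tested models), and 2 rose in PBC livers (7.6%). Cyp3a11, a drug-metabolising P450, rose by 1.00 in PSC (SE 0.23, adjusted p = 0.0112), lost without PSC 14 (0.0768) and with no filter (0.0683). Cyb5b, the cytochrome b5 of the outer mitochondrial membrane, fell by 0.70 in PSC (SE 0.20, adjusted p = 0.0322), lost without control 1, 2 or 4, PSC 13 or PSC 14 (0.063 to 0.151) and with no filter (0.0767). Cyp2b10 was 2042, 684 and 1351 in PSC livers, 8928, 13539 and 12516 in PBC livers, and 848, 306, 636 and 1265 in control livers, and every PBC liver was above all others. It rose by 4.08 in PBC against control (SE 0.43, adjusted p = 0.000123) and PSC against PBC gave -3.21 (SE 0.46, adjusted p = 0.00318). Cyp2c29 likewise rose by 1.37 in PBC (SE 0.22, adjusted p = 0.00219), and PSC against PBC gave -1.74 (SE 0.24, adjusted p = 0.00268). Cyp1a2 in PSC against PBC was -1.64 (SE 0.29, adjusted p = 0.0106), lost without PSC 13 or PSC 14 (0.0628 to 0.0637). These P450 genes belong to families of similar sequence, and how reads shared between copies were counted is not known.

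Of 10 antioxidant genes that NRF2 and BACH1 are known to control beside Hmox1, 9 passed the filter. In PSC livers 1 rose and 1 fell, in PBC livers 1 rose, and in PSC against PBC 1 was lower. Srxn1, sulfiredoxin, rose by 0.62 in PSC (SE 0.16, adjusted p = 0.0226), lost without control 1, PSC 11 or PSC 14 (0.0663 to 0.121). Me1, malic enzyme, fell by 1.62 in PSC (SE 0.38, adjusted p = 0.0132), lost without PSC 11 (0.0614), and was -0.87 with quality weights. G6pdx, the entry to the pentose phosphate pathway, was 331 ± 69.6 in PSC, 959 ± 30.3 in PBC and 437 ± 114 in control livers, rose by 1.17 in PBC against control (SE 0.24, adjusted p = 0.0083) and was -1.55 in PSC against PBC (SE 0.25, adjusted p = 0.00669). Nqo1, Gclc, Gclm, Txnrd1, Fth1 and Ftl1 were not called in any comparison. In PSC against PBC the other 6 lists gave 0 calls.

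The list medians in PSC against control ran from -0.72 for bilirubin handling to 1.43 for plasma scavenging, where the median of all tested models was 0.06, and in PBC against control from -0.33 for bilirubin handling to 1.68 for plasma scavenging, where it was 0.01.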

How the data were processed

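Per the labels' protocols, RNA of RIN above 8 from whole livers was made into stranded poly(A) libraries and read as pairs of 75 bases on a NextSeq 500. The submitters' processing notes name STAR 2.4.0, the mm10 build, SAMtools, Picard, FastQC and DESeq2. How reads were counted, and whether by strand, was not given in the sources used here. Each deposited value, a signal, is the authors' DESeq2-normalised read number per gene model, per the file headers and labels. Within each library the low values, the only ones checked, were whole multiples of 1 step (100% whole, tolerance 0.1). All values were divided by that step and rounded to give the reads back. The 9 enzymes, at 517 reads or more, lay above the checked range. More models held 2 reads than 1 (on average 2263 against 573), so each pair probably counts as 2 and counting errors are wider than reads imply.

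limma 3.58.1 in R 4.3.3 was fitted with an intensity trend to log2(value + 1) of all 10 livers. The filter (10 or more in 3 or more libraries) left 18390 models. edgeR 4.0.16 and DESeq2 1.42.0 on the recovered reads, TMM and equal totals, pseudocounts of 0.5 and 5, no filter, a filter at 50, quality weights, only the compared groups, and each library left out in turn were alternatives. A fold change on this scale understates that of low genes. Labels give no culture or litter, and each library is taken as 1 mouse. A p-value of limma sets a group difference against the spread between mice within groups. That spread is pooled over all groups and drawn towards the trend of all tested models. The fit was tested on simulated data.

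The members, the 8 gene lists and 6 marker lists were chosen with earlier results of these data known. All members are named, and from each list up to 4 called genes of smallest adjusted p in a comparison. Cd163, Hmox2, Bach1, Nr1d2, Slc25a28, Clec4f, C1qa, C1qb, C1qc, Hbb-bs, Alb, Ttr, Serpina1c, Ahsg, Fgb, Asgr1, Timd4, Adgre1, Spp1, Krt19 and the uncalled antioxidant genes were added after their values were seen. Flvcr1 and Flvcr2 were matched through older symbols of RefSeq, and Ahsp had no model. Promoters are RefSeq's of GRCm38.p6, with 7 of 9 members matched. Some genes that the naming rule selects are not reported here.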

Additional observations from a re-analysis of the deposited data

Results flagged for a closer look

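Among 35 groups of 4 control values examined, 4 had a value far from the other 3 by Dixon's 95% criterion, which chance gives in about 1 of 20 groups. The groups come from the same 4 mice, so they are not independent of each other. The criterion was applied to normalised reads and not to the log2 values of the fit. On the scale of normalised reads Slco1a1, at 159.7 in control 4 and at least 4304 in the other controls, was not flagged. Urod stood at 10868 in control 4, apart from the other controls. Cyp1a2 stood at 30137 in control 4. Nfe2l2 stood at 7501 in control 4. Hebp2 stood at 393 in control 3.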

How the results depend on the processing

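Of 540 alternative values of the 27 changes of the 9 enzymes, 500 kept their direction and their side of the threshold, 6 lost a call, 8 gained one and 26 changed sign; of the 80 that belong to the 4 calls, 74 were kept and 0 changed sign. The calls that were lost are the 6 of Fech given above. With equal totals 669 genes were lower in PSC against control with 1 of the 9 enzymes, 853 higher in PBC against control, and 128 lower in PSC against PBC; that scaling moved the median of all tested models in PBC against control to -0.12. With DESeq2, 1929 were lower in PSC and 913 in PBC against control, with 1 enzyme, and in PSC against PBC 623 were higher, with 1 enzyme, and 590 lower. With only the compared groups, 1853 were lower in PSC, 752 higher and 89 lower in PBC. With quality weights, 3899 were higher and 3404 lower in PSC, 2425 higher and 1803 lower in PBC with 3 enzymes lower, and 701 higher, with 1 enzyme, and 658 lower in PSC against PBC. The cause was not tested. Leaving out single libraries gave 711 to 1915 higher and 251 to 1899 lower genes and 1 to 2 lower enzymes in PSC, 684 to 1818 higher and 65 to 1574 lower genes (1574 without PBC 8) and 0 to 2 lower enzymes in PBC, and 42 to 301 higher and 59 to 261 lower in PSC against PBC. Uncalled values that changed sign were, with quality weights, Alas1 in PBC (0.28), Urod in PSC against PBC (-0.028), Ppox in PSC (0.038), Fech in PSC against PBC (0.045) and Blvrb in PBC (0.14); with equal totals, Ppox in PBC (-0.022) and Blvrb in PSC (-5.85e-05); and Blvrb in PSC with edgeR (-0.014) and DESeq2 (-0.0018). With a library left out, the range spanned 0 for Alas1 in PSC (-0.26 to 0.48), Blvrb in PSC (-0.074 to 0.17), Ppox in PSC (-0.15 to 0.16), in PBC (-0.14 to 0.36) and in PSC against PBC (-0.37 to 0.13), and, in PSC against PBC, for Alad (-0.48 to 0.041), Urod (-0.12 to 0.15), Fech (-0.36 to 0.084) and Hmox1 (-0.34 to 0.022). No paired analysis was possible because the groups share no replicate numbers. Depth limits little here: the lowest enzyme had 517 reads.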

Other observations

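Ratios within a library do not depend on how libraries are scaled, and these were chosen after the values were seen, so they describe the livers only. Hmox1 over Fech, the enzyme that opens the heme ring over the one that places its iron, was 1.70, 0.892 and 1.27 in PSC livers, 1.29, 0.976 and 1.54 in PBC livers, and 0.277, 0.230, 0.203 and 0.332 in control livers. Every cholangitis liver was above every control liver. Cpox over Urod, neighbours in the pathway, was 0.156, 0.149 and 0.103 in PSC livers, 0.136, 0.398 and 0.158 in PBC livers, and 0.399, 0.541, 0.294 and 0.296 in control livers. PBC 8 was in the range of the controls for this ratio and PBC 7 and PBC 9 were with the PSC livers.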
